A study of Mus musculus with 8 samples.

Results

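The genes described here are 8 platelet and megakaryocyte genes, Pf4, Ppbp, Itga2b, Itgb3, Gp1ba, Gp9, Gp5 and F5, taken by symbol from the 52550 genes listed for every library. All 8 were found, each under 1 identifier. Platelets are shed by megakaryocytes of the bone marrow and carry much of the RNA of the cell that made them. Their granules hold chemokines that are released on activation, their surface carries the fibrinogen receptor (an integrin of an alpha and a beta chain) and the GPIb-IX-V complex that holds them to von Willebrand factor, and they store coagulation factor V. These genes are used as markers of the megakaryocyte lineage and are not part of the B lineage program.

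Total RNA was sequenced from cells of the pre-pro-B and of the pro-B stage isolated from bone marrow with flow cytometry, using C57BL/6J mice that were wild type (WT) or lacked lactoferrin (Lf-/-), an iron-binding protein of neutrophil granules encoded by Ltf. The age of the mice is not given in the sources used here, the labels report no treatment, and the methods give 3 mice per group without saying how these were divided over the libraries. Of the 7 libraries analysed, 4 are pre-pro-B (2 of each genotype) and 3 are pro-B, of which 1 is WT and 2 are Lf-/-; replicate 2 of WT pro-B was not analysed here. Values are FPKM, fragments scaled to transcript length and to library size, which allows levels of different genes to be set side by side. Between libraries the values depend on scaling (median-ratio factors of 0.737 to 1.31), and other scalings are given for the comparisons that rest on WT pro-B. Because WT pro-B has 1 library, no comparison that rests on it alone was tested.

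The labels were checked on Ltf and on lineage genes. Ltf was at 2143 and 2731 FPKM in WT pre-pro-B and at 2650 FPKM in WT pro-B, against 88.2 and 149 FPKM (pre-pro-B) and 168 and 96.0 FPKM (pro-B) in Lf-/-. All 4 Lf-/- libraries lay below all 3 WT ones, which fits their labels. Of the 14 early B lineage genes, 13 reached 1 FPKM in 2 or more libraries, with Cd79a as the highest in each library (86.1 to 1518 FPKM). In WT they were not higher at the later stage: their sum was 621 and 596 FPKM in WT pre-pro-B and 231 FPKM in WT pro-B, and all 10 that passed the filter were lower in pro-B. The most abundant lineage genes in every library were nevertheless those of neutrophils: 12 neutrophil genes made up between 23.7% and 51.4% of all FPKM in a library, with S100a8 as the highest. The 12 erythroid genes made up between 1.93% and 15.3%. The platelet genes are therefore measured in libraries that hold RNA of several marrow lineages. In such bulk libraries fewer cells of a type and less RNA per cell cannot be told apart.

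One library stands apart from the rest. Lf-/- pre-pro-B 2 listed 12172 genes above 0, while the other 6 libraries listed between 19477 and 20250. Of the 7741 genes with at least 1 FPKM in each of the other 6 libraries, 678 (8.76%) were listed at 0 there, among them genes that nearly all cells use, such as Samm50 (mean of 50.2 FPKM in the other 6) and Timm10 (20.5 FPKM). No other library listed more than 2 genes at 0 in the same way. This library listed 6 of the 8 platelet genes at 0 and the remaining pair, Gp9 and F5, at 20.5 and 1.12 FPKM. A value of 0 in it is reported only as listed at 0, and the tested differences of the 8 genes are given with and without it. Sums and values by library include it unless stated.

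How often a 0 appeared in Lf-/- pre-pro-B 2 depended on the level of the gene. Among genes with a mean of 0.1 to 0.5 FPKM in the other 6 libraries, the range of Gp1ba, 71.0% were listed at 0. The share was 45.8% at 0.5 to 1 FPKM (Itgb3), 30.8% at 1 to 2 FPKM (Itga2b, Gp5 and F5) and 17.4% at 2 to 5 FPKM (Ppbp and Gp9). At 20 to 100 FPKM, the range of Pf4, it was 1.56%, or 22 of 1411 genes. The zeros of the low platelet genes are thus shared with a large part of all genes at their level, and that of Pf4 with few.

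**Figure D1:**
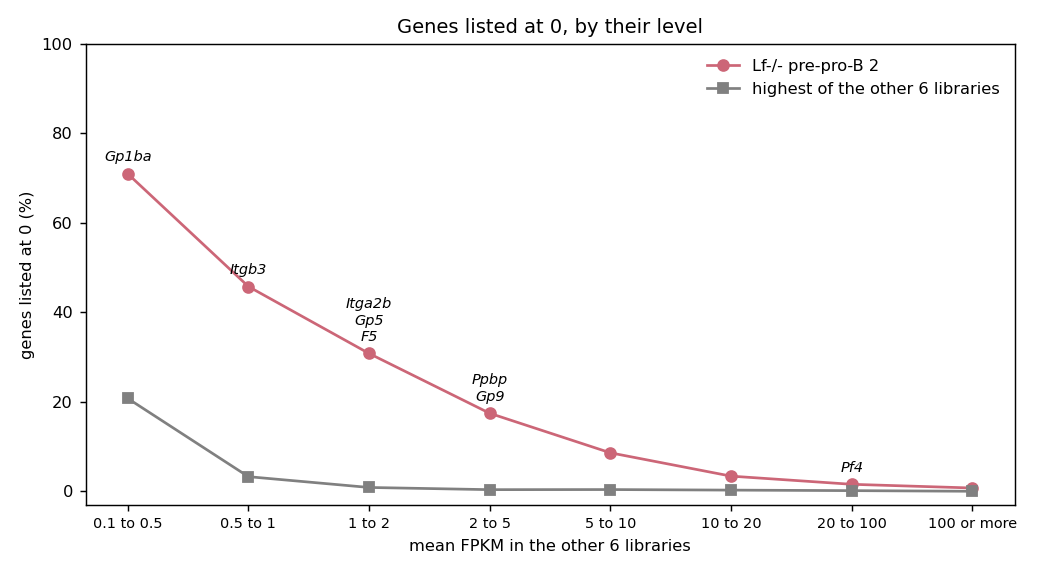
Percent of genes listed at 0 (y axis) by their mean FPKM in the other 6 libraries (x axis), in Lf-/- pre-pro-B 2 (circles) and in whichever other library had the highest percent (squares). Names are placed over the level class each of the 8 genes falls in; all but F5 and Gp9 are at 0 in Lf-/- pre-pro-B 2, and Pf4 lies in a class where 1.56% of genes are.

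Depth could be estimated in 6 libraries from the spacing of low values in genes with 1 transcript, and came to between 11200000 and 15600000 fragments; Lf-/- pre-pro-B 2 showed no such spacing that recurred at its multiple, and its depth is unknown. At that depth the values of Ppbp correspond to about 3 to 91 fragments, those of Gp9 to about 35 to 86, those of Gp5 to about 32 to 62 and those of F5 to about 119 to 254. For Gp1ba, whose annotated transcripts have 2480 and 2710 bases, the values correspond to between 3 and 10 fragments. Differences in Gp1ba were therefore not measurable at this depth, and those of Ppbp in its lowest library rest on few fragments.

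The first pair of genes are the granule chemokines. Pf4, platelet factor 4, is the chemokine of the alpha granule most used to mark the lineage, and Ppbp encodes the precursor of other platelet chemokines. They lie side by side on chromosome 5 (GRCm38, GENCODE M21), Ppbp at bases 90768518 to 90770063 and Pf4 at 90772435 to 90773383, both on the plus strand, so that Pf4 starts 2372 bases after the end of Ppbp. No other annotated gene overlaps either of them. As Pf4 is the most abundant of the 8 genes in 6 libraries, the 300 bases around its start (250 before, 50 from the start on) are shown first.

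Promoters were taken from RefSeq on GRCm38.p6 for 7 of the 8 genes; Itgb3 had no entry. They were searched on both strands for AGATAA, a form of the motif of GATA factors, and AGGAAG, a form of that of Ets factors, since Gata1 and Fli1 are among the factors megakaryocytes depend on. Of 32851 promoters of the same length, 11.2% held the first, 35.4% the second and 4.05% both. Of the 7, 2 held the first, 6 the second, and Pf4 and Gp5 held both. Ppbp held neither. The windows of Pf4, Gp5, Gp9 and Itga2b are given 5′ to 3′ on the strand of the gene, with matches to either motif on either strand in capitals: Pf4 and Gp5 as those with both, Gp9 because its level followed that of Pf4 in 6 libraries, and Itga2b because its level did not.
Pf4 (chr5:90772185-90772484, plus strand): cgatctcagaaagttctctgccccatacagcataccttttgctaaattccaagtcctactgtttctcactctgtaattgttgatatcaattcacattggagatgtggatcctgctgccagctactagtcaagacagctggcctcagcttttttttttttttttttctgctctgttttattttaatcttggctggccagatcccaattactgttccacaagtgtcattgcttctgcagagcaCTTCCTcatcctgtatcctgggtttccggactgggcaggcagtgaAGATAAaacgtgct
Gp5 (chr16:30310732-30311031, minus strand): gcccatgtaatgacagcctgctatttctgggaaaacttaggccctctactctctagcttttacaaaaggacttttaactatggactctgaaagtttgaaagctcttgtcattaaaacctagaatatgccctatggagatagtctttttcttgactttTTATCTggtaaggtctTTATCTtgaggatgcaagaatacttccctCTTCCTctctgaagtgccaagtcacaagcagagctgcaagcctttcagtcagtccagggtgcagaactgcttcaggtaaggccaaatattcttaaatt
Gp9 (chr6:87777820-87778119, plus strand): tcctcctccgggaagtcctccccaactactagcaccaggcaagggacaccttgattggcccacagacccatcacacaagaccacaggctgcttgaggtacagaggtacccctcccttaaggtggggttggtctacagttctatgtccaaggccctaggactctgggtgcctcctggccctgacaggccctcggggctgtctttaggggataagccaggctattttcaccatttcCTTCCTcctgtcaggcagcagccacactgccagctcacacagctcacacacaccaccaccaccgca
Itga2b (chr11:102469834-102470133, minus strand): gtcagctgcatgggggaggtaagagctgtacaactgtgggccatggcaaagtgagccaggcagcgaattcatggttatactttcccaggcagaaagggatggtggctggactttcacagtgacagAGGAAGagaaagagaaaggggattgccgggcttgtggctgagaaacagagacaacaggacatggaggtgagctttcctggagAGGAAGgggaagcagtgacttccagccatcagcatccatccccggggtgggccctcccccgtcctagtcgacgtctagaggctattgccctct
In Pf4 the Ets letters ended 4 bases before the start and the GATA letters began at base 37 after it. Gp5 held the GATA letters at 2 places, 93 and 77 bases before the start, and the Ets letters once. The single Ets match of Gp9 began 16 bases before the start, and Itga2b held 2. A match is a run of letters and says nothing of binding.

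Pf4 was the most abundant of the 8 genes in 6 of the 7 libraries. It was at 86.1 and 92.4 FPKM in WT pre-pro-B, at 37.9 FPKM and listed at 0 in Lf-/- pre-pro-B, at 41.4 FPKM in WT pro-B, and Lf-/- pro-B had 21.2 and 28.9 FPKM. Within each stage the Lf-/- values were below those of WT, in pre-pro-B with 1 of the 2 listed at 0. The share of all genes with such an order is not given here, for Pf4 or for the genes below. WT pre-pro-B was highest, at 89.2 ± 4.49 FPKM (SD, n = 2), and Lf-/- pro-B lower, at 25.1 ± 5.45 FPKM (SD, n = 2); the single WT pro-B library and Lf-/- pre-pro-B 1 were close to each other between them. Ranked among all genes of a library, Pf4 stood at place 602 and 650 in WT pre-pro-B and at place 1654 and 2030 in Lf-/- pro-B.

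Ppbp did not follow Pf4 in every library. Its level was 5.65 and 5.55 FPKM in WT pre-pro-B, 7.52 FPKM and listed at 0 in Lf-/- pre-pro-B, 3.16 FPKM in WT pro-B, and 0.253 and 1.71 FPKM in Lf-/- pro-B. At the pre-pro-B stage the genotypes overlap only through the value listed at 0, as Lf-/- pre-pro-B 1 held the highest value of all and lay above both WT libraries. In pro-B both Lf-/- libraries were below the WT one. The level of Pf4 was 15.2 and 16.7 times that of Ppbp in WT pre-pro-B, 13.1 times in WT pro-B and 16.9 times in Lf-/- pro-B 2. It was 5.04 times in Lf-/- pre-pro-B 1 and 84.0 times in Lf-/- pro-B 1, where Ppbp rests on about 3 fragments.

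**Figure D2:**
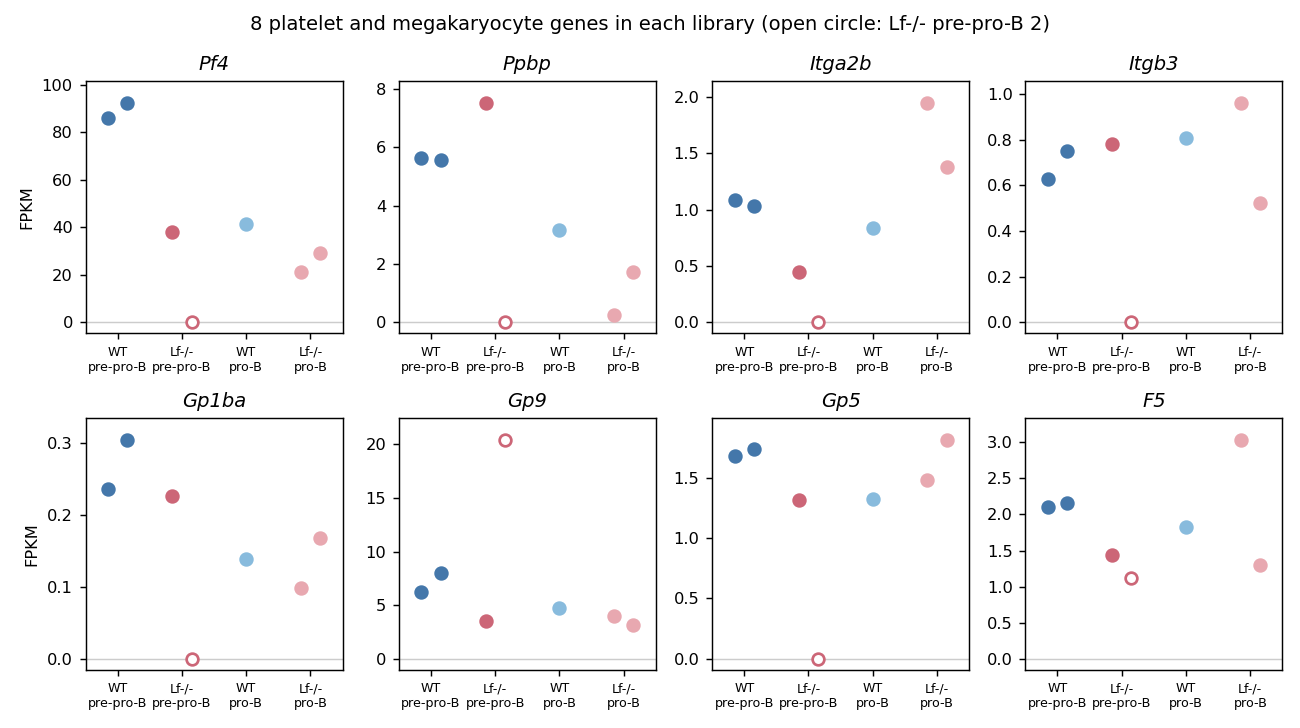
FPKM (y axis, from 0, with its own scale for each gene) of the 8 genes in the 7 libraries, by group (x axis); each point is 1 library and the open circle is Lf-/- pre-pro-B 2. Pf4 is lower in each Lf-/- library than in any WT library of the same stage, from 86.1 and 92.4 to 37.9 FPKM and 0 in pre-pro-B and from 41.4 to 21.2 and 28.9 FPKM in pro-B, while Itga2b is lower in Lf-/- pre-pro-B and higher in Lf-/- pro-B.

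The fibrinogen receptor is made of the products of Itga2b, its alpha chain and the antigen CD41 of early megakaryocytes, and Itgb3, its beta chain, which also pairs with another alpha chain in other cells. Both genes are on chromosome 11, where Itgb3 starts 2137878 bases after the end of Itga2b, Itga2b at 102453297 to 102470122 on the minus strand and Itgb3 at 104608000 to 104670476 on the plus strand. A small annotated RNA, Gm23563, lies within Itga2b and was at 0 in all 7 libraries. Itga2b was at 1.08 and 1.03 FPKM in WT pre-pro-B, at 0.446 FPKM and listed at 0 in Lf-/- pre-pro-B, at 0.832 FPKM in WT pro-B, and Lf-/- pro-B had 1.95 and 1.38 FPKM. It was thus below WT in both Lf-/- pre-pro-B libraries and above WT in both Lf-/- pro-B libraries. Itgb3 was at 0.627 and 0.751 FPKM in WT pre-pro-B, 0.782 FPKM and listed at 0 in Lf-/- pre-pro-B, 0.810 FPKM in WT pro-B, and 0.962 and 0.523 FPKM in Lf-/- pro-B. Its groups overlap at each stage, in pre-pro-B only through the value listed at 0, since Lf-/- pre-pro-B 1 was above both WT libraries. No library reached 1 FPKM.

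The GPIb-IX-V complex takes its binding chain from Gp1ba and smaller chains from Gp9 and Gp5. Gp9 (chromosome 6, 87778072 to 87779768, plus strand) was at 6.23 and 8.04 FPKM in WT pre-pro-B, 3.56 and 20.5 FPKM in Lf-/- pre-pro-B, 4.78 FPKM in WT pro-B, and 4.02 and 3.19 FPKM in Lf-/- pro-B. Outside Lf-/- pre-pro-B 2, which held the highest value of all, each Lf-/- library was below every WT library of its stage. Gp5 (chromosome 16, 30307685 to 30310779, minus strand) was at 1.68 and 1.74 FPKM in WT pre-pro-B, 1.32 FPKM and listed at 0 in Lf-/- pre-pro-B, 1.33 FPKM in WT pro-B, and 1.48 and 1.82 FPKM in Lf-/- pro-B. Like Itga2b it was below WT in Lf-/- pre-pro-B and above WT in Lf-/- pro-B, over a narrow range. Gp1ba (chromosome 11, 70639122 to 70642036, plus strand) stayed between 0.0988 and 0.305 FPKM in the 6 libraries other than Lf-/- pre-pro-B 2, where it was listed at 0. The gene of the chain that binds von Willebrand factor was thus the lowest of the 8 per length, and that of the Gp9 chain the second highest after Pf4 in mean level over those 6 libraries (4.97 FPKM).

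F5 encodes coagulation factor V, the cofactor of the enzyme that makes thrombin, found both in plasma and in platelet granules. It was at 2.11 and 2.16 FPKM in WT pre-pro-B, 1.44 and 1.12 FPKM in Lf-/- pre-pro-B, 1.83 FPKM in WT pro-B, and 3.04 and 1.31 FPKM in Lf-/- pro-B. Both Lf-/- pre-pro-B libraries were below both WT ones, and the Lf-/- pro-B libraries lie on either side of the WT one. F5 (chromosome 1, 164151838 to 164220277, plus strand) is overlapped by an antisense RNA gene, Gm16548, which was listed at a mean of 1.98 FPKM in the 6 libraries, and by a pseudogene on its own strand, Gm16588. Whether the counting used strand is not given in the sources used here, so fragments of F5 and Gm16548 may not be separated.

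Summed over the 8 genes, the level was 104 and 112 FPKM in WT pre-pro-B, 53.2 and 21.6 FPKM in Lf-/- pre-pro-B, 54.3 FPKM in WT pro-B, and 33.0 and 39.0 FPKM in Lf-/- pro-B. Pf4 alone made up between 64.3% and 83.0% of the sum in the 6 libraries that list it above 0. Without Pf4 the sum lay between 10.1 and 21.6 FPKM in all 7 libraries, and its highest value was that of Lf-/- pre-pro-B 2, nearly all of it Gp9. The order of the summed level is therefore largely the order of Pf4.

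**Figure D3:**
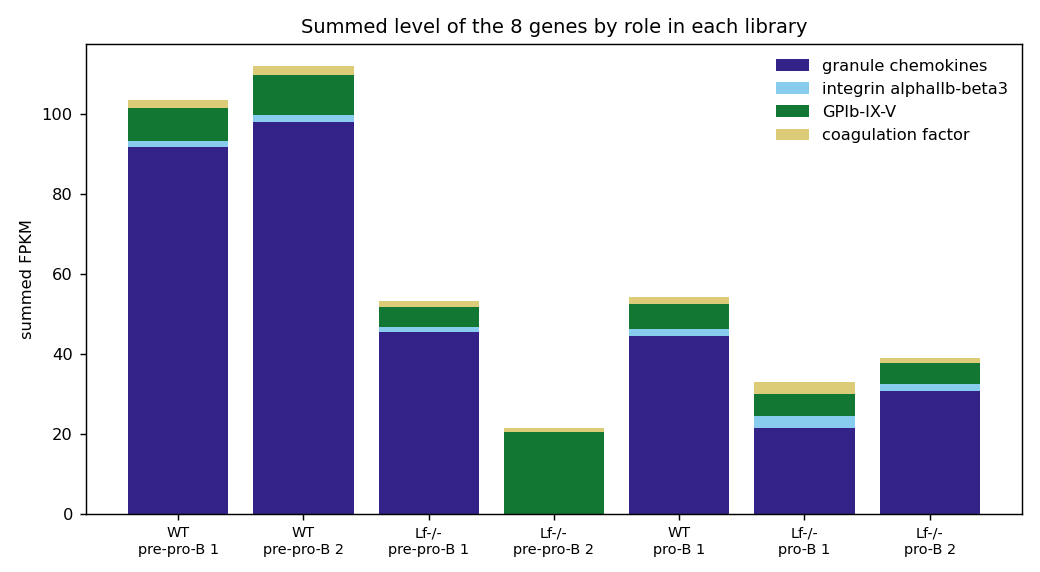
Summed FPKM (y axis, from 0) of the 8 genes in each of the 7 libraries (x axis), stacked by role: granule chemokines (Pf4, Ppbp), integrin chains (Itga2b, Itgb3), GPIb-IX-V chains (Gp1ba, Gp9, Gp5) and the coagulation factor (F5). The WT pre-pro-B bars reach 104 and 112 FPKM, and the chemokines make up most of each bar except in Lf-/- pre-pro-B 2, where they are at 0.

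The genes did not vary as 1 block. Over the 6 libraries other than Lf-/- pre-pro-B 2, on the log2(FPKM + 1) scale, Pf4 correlated with Gp9 at r = 0.88 (rho = 0.83) and with Ppbp at r = 0.76 (rho = 0.60). With Itga2b it correlated at r = -0.37 (rho = -0.49) and with F5 at r = -0.01 (rho = 0.14). Ppbp and Itga2b ran opposite to each other, at r = -0.87 (rho = -0.77). These coefficients describe 6 libraries of 4 groups, whose points share their group, library and depth. With Lf-/- pre-pro-B 2 included, where Pf4 and Itga2b are both at 0 and Gp9 has its highest value, Pf4 and Itga2b were at r = 0.66 (rho = 0.07) and Pf4 and Gp9 at r = -0.69 (rho = 0.14). Ppbp and Itga2b, both at 0 there, were then at r = 0.08 (rho = -0.11), so their opposite course was seen only without that library.

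By the same measure over 7 libraries, the genes closest to the summed level of the 8 were Spic (r = 0.98, rho = 0.96), Axl (r = 0.98, rho = 0.96), Gm24786 (r = 0.97, rho = 0.89), Zfp931 (r = 0.97, rho = 0.86) and Ighv1-84 (r = 0.96, rho = 0.86), out of 10787 genes compared. Axl was at 5.30 and 6.81 FPKM in WT pre-pro-B, 3.46 FPKM and listed at 0 in Lf-/- pre-pro-B, 2.37 FPKM in WT pro-B, and 0.961 and 1.49 FPKM in Lf-/- pro-B. Of these 5 genes, 4 are listed at 0 in Lf-/- pre-pro-B 2. Over the 6 other libraries, a choice made after seeing the data, 2 of the 5 were again among the closest 5, Axl (r = 0.97) and Spic (r = 0.97), followed by Mllt1, Acp2 and Ticrr. No listed platelet gene was among them.

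The comparison of genotypes in pre-pro-B cells asks which genes differ before B lineage commitment is complete. Of the 8 genes, 6 passed the filter (1 FPKM or more in 2 or more of the 4 libraries); Itgb3 and Gp1ba did not. Pf4 had the largest difference, with a log2 difference of -3.85 ± 1.61 (SE, Lf-/- minus WT, limma on log2(FPKM + 1), unadjusted p = 0.056, adjusted p = 0.94). It was lower in 2 of 2 Lf-/- libraries, of which 1 lists it at 0. Differences on this scale understate changes of genes near or below 1 FPKM. None of the 6 passed an unadjusted p of 0.05, where 2.92% of 9720 genes did, and none passed the adjusted threshold of 0.05, which 0% of all genes did (0 genes in limma; 284 at the unadjusted threshold). The median of the 6 was -0.80, against 0.03 over all genes.

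Lf-/- pre-pro-B 2 sets much of this. Without it, with the remaining Lf-/- library assumed to vary like the WT ones, the log2 difference of Pf4 was -1.21 ± 0.29 (SE; unadjusted p = 0.011, adjusted p = 0.54) and that of Gp9 was -0.83 ± 0.30 (SE; unadjusted p = 0.047, adjusted p = 0.60). These 2 of 6 genes passed the unadjusted threshold, where 8.07% of all genes did, and the median of the 6 was -0.43 against -0.10. The difference of Gp9 had been 0.29 ± 0.79 with that library, and that of Ppbp turned from -1.18 ± 1.02 to 0.37 ± 0.27. Itga2b (-0.77 and -0.51), Gp5 (-0.83 and -0.23) and F5 (-0.46 and -0.36) kept their sign with and without it and did not pass in either fit.

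In pro-B cells, where 1 WT library was set against 2 Lf-/- libraries without a test, a gene was counted when it differed by at least 1 on the log2 scale with both Lf-/- values on one side. Of the 6 genes past the filter, Ppbp was counted as lower (log2 difference of -1.17), where 1.07% of 9662 genes were, and none as higher, where 13.5% were. That call rests on both Lf-/- libraries: without Lf-/- pro-B 1, where Ppbp comes to about 3 fragments, its log2 difference was -0.62, and without Lf-/- pro-B 2 it did not pass the filter. Pf4 differed by -0.72 and Gp9 by -0.33, while Itga2b (0.53), Gp5 (0.19) and F5 (0.11) were above WT in their mean. The median of all genes was itself at 0.51, so relative to it Itga2b was near the middle of the distribution and the other 5 genes were below it. Under median-ratio scaling and quantile normalization Gp5 turned to -0.21 and -0.29 and F5 to -0.33 and -0.41, and Pf4 went to -1.35 and -1.31 and was counted as lower beside Ppbp. The share of all genes counted as lower under these scalings is not given here, and the 1.07% above is for unscaled values. Gp9 went to -0.87 and -0.94, and Itga2b to 0.19 and 0.16.

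Over both stages, with stage as a term and 3 WT against 4 Lf-/- libraries, Pf4 was the gene of the 8 that passed the unadjusted threshold. Its log2 difference was -2.60 ± 1.13 (SE, limma, unadjusted p = 0.048, adjusted p = 0.69), with every Lf-/- library, including the 1 that lists it at 0, below the WT libraries of its stage. That is 1 of 6 genes tested, where 7.17% of 10793 genes passed unadjusted; 20 genes (0.185%) passed the adjusted threshold, and none of the 8 was among them. Without Lf-/- pre-pro-B 2 the difference of Pf4 was -0.97 ± 0.35 (SE; unadjusted p = 0.018, adjusted p = 0.32), again 1 of 6, where 9.62% of all genes passed. Ppbp was at -1.18 ± 0.67 and without that library at -0.40 ± 0.40, and Itga2b at -0.25 ± 0.36 and 0.01 ± 0.29. The unadjusted call of Pf4 was also lost with a pseudocount of 0.1 (unadjusted p = 0.10), with quantile normalization (unadjusted p = 0.054), with no filter (unadjusted p = 0.097), without WT pre-pro-B 1 (unadjusted p = 0.11) or 2 (unadjusted p = 0.10) and without Lf-/- pro-B 1 (unadjusted p = 0.063).

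**Figure D4:**
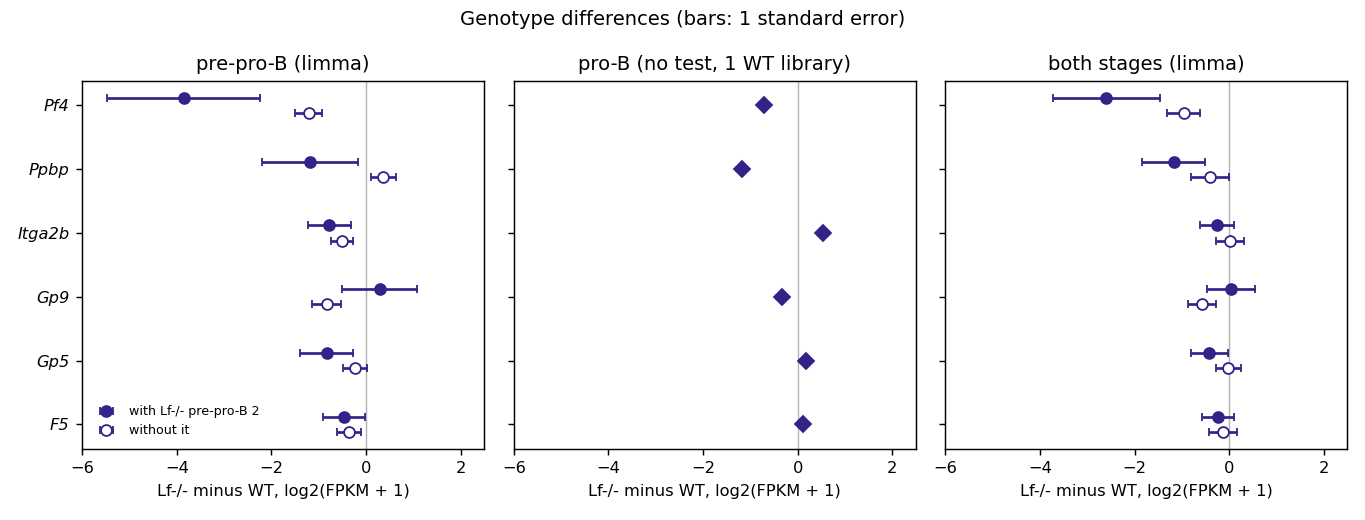
Log2 difference between Lf-/- and WT (x axis, on the log2(FPKM + 1) scale) for the 6 genes that passed the filter (y axis), in pre-pro-B, in pro-B and over both stages; bars are 1 standard error from limma, and the pro-B values have none because WT has 1 library. Filled circles include Lf-/- pre-pro-B 2 and open circles leave it out: Pf4 moves from -3.85 to -1.21 in pre-pro-B, and Gp9 and Ppbp change side.

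Between the stages in WT mice, Pf4 was lower in the 1 pro-B library than in both pre-pro-B libraries, which was not tested. Its single WT pro-B library was 1.09 lower on the log2 scale than the mean of the WT pre-pro-B libraries (log2 difference of -1.09), which counts it among the 3.71% of 9065 genes lower by at least 1; 0.706% were higher, none of the 8 among them. All 6 genes past the filter were below pre-pro-B, with a median of -0.35 against -0.32 for all genes, so that Pf4, at -1.09, Ppbp, at -0.67, and Gp9, at -0.48, were below the general shift and the other 3 were above it. Under median-ratio scaling Pf4 was at -0.70 and no gene of the 8 was counted, and Itga2b, Gp5 and F5 were at 0.03, 0.02 and 0.12.

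In Lf-/- cells the stage comparison depended on Lf-/- pre-pro-B 2 even for direction. With it, Pf4 was at 2.05 ± 1.51 (SE; pro-B minus pre-pro-B; unadjusted p = 0.22), and without it at -0.59 ± 0.39 (unadjusted p = 0.18). None of the 6 genes passed the unadjusted threshold in limma, where 3.4% of 10311 genes did, and 0% of all genes passed the adjusted one. Without that library Ppbp was lower in pro-B by -2.21 ± 0.51 (SE; unadjusted p = 0.0051, adjusted p = 0.22) and Itga2b higher by 0.87 ± 0.34 (SE; unadjusted p = 0.041, adjusted p = 0.55), 2 of 6 genes where 8.35% of all genes passed. The lowest Ppbp value behind the first of these rests on about 3 fragments.

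Whether the genotype difference itself changed between the stages was tested in 1 fit of the 4 groups, in which the WT pro-B library was assumed to vary like the others. None of the 6 genes passed the unadjusted threshold, where 2.74% of 10793 genes did, and 0% of all genes passed the adjusted one. The median change of the 6 was 0.80, against 0.45 over all genes. Itga2b came closest, at 1.30 ± 0.59 (SE; log2 difference in pro-B minus that in pre-pro-B; unadjusted p = 0.064, adjusted p = 0.99). Without Lf-/- pre-pro-B 2 it was at 1.04 ± 0.41 (SE; unadjusted p = 0.049, adjusted p = 0.32), 1 of 6 genes, where 15.5% of all genes passed.

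Beyond the 8, other genes of the lineage were compared list by list. The 18 other receptors and adhesion genes summed to 126 and 140 FPKM in WT pre-pro-B, 91.2 and 175 FPKM in Lf-/- pre-pro-B, 94.1 FPKM in WT pro-B, and 167 and 174 FPKM in Lf-/- pro-B, most of it from Cd9, a tetraspanin of many blood cells (75.9 to 155 FPKM). Of these 18, 7 stayed under 1 FPKM in all libraries, among them the collagen receptor Gp6 and the podoplanin receptor Clec1b. Treml1, a receptor of the alpha granule membrane, was at 1.28 and 1.11 FPKM in WT pre-pro-B, 1.62 FPKM and listed at 0 in Lf-/- pre-pro-B, 2.06 FPKM in WT pro-B, and 0.584 and 0.454 FPKM in Lf-/- pro-B. Over both stages 2 of the 7 tested genes, Tbxa2r and Pecam1, passed the unadjusted threshold as higher in Lf-/-, where 6.48% of all genes did, and none as lower. Both passed without Lf-/- pre-pro-B 2 too, where the log2 difference of Tbxa2r went from 1.89 to 1.02.

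Among the 12 other granule proteins the sum lay between 484 and 701 FPKM and came mostly from Srgn, the granule proteoglycan that myeloid cells make as well (473 to 689 FPKM). Vwf and Mmrn1, which are restricted to megakaryocytes and endothelium, were under 1 FPKM in every library, and no gene of the list passed the unadjusted threshold in the fit over both stages; without Lf-/- pre-pro-B 2 Nrgn did, as higher in Lf-/-. In the stage comparison of Lf-/- cells 1 of 4 tested genes, Thbs1, passed as higher in pro-B (log2 difference of 1.68), where 2.73% of all genes did. For Sparc, which did not pass the filter of that comparison, the genotype difference changed between the stages by 1.71. Its values were at most 1.22 FPKM, with 0 in the single WT pro-B library. Both are listed at 0 in Lf-/- pre-pro-B 2. Without that library these values were 1.02 and 1.61, and Thbs1 did not pass. Of the 16 genes of cytoskeleton and signaling, 9 were tested. Gng11, a G protein subunit abundant in platelets, was at 6.51 and 5.41 FPKM in WT pre-pro-B, 2.33 and 1.35 FPKM in Lf-/- pre-pro-B, 2.95 FPKM in WT pro-B, and 1.93 and 3.38 FPKM in Lf-/- pro-B; it was lower at the unadjusted threshold in pre-pro-B with and without Lf-/- pre-pro-B 2 (unadjusted p = 0.033 and 0.018 in limma), and over both stages with it (unadjusted p = 0.050) but not without it (unadjusted p = 0.087). Of all genes, 0.926% were lower at that threshold in pre-pro-B and 0.695% over both stages. Tpm4, a tropomyosin, was higher over both stages at the unadjusted threshold, where 6.48% of all genes were. Tubb1, the tubulin of the platelet ring, did not exceed 0.615 FPKM.

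Of the 11 transcription factors of the lineage, 9 reached 1 FPKM in 2 or more libraries, and Tal1 and Meis1 stayed under 1 FPKM in all 7. Gata1 was at 18.3 and 12.1 FPKM in WT pre-pro-B, 8.05 FPKM and listed at 0 in Lf-/- pre-pro-B, 11.5 FPKM in WT pro-B, and 13.2 and 18.5 FPKM in Lf-/- pro-B. Nfe2, which erythroid cells also use, was at 62.3 and 33.3 FPKM, 20.2 and 148 FPKM, 64.4 FPKM, and 52.3 and 83.6 FPKM in the same order. Lf-/- pre-pro-B 2 held the highest value of Nfe2, Gfi1b, Lyl1 and Mafg, and 0 for Gata1, Tal1 and Meis1. Of 9 factors tested, Gata2 passed the unadjusted threshold as lower in Lf-/- pre-pro-B (log2 difference of -1.61), where 0.926% of all genes did. It passed as higher in pro-B in the stage comparison of Lf-/- cells (1.92), where 2.73% did, and its genotype difference changed between the stages by 2.28. Without Lf-/- pre-pro-B 2 these differences were -1.19, 1.51 and 1.87. Gata1 also passed as higher in that stage comparison (log2 difference of 2.47). Without Lf-/- pre-pro-B 2, which lists it at 0, it was at 0.88 and did not pass. Nfe2 was at 0.26 in the stage comparison of Lf-/- cells and at 1.66 without that library. None of the 9 passed over both stages. Gata2 is also on the mast cell and basophil list, of which 3 of 6 tested genes (Mcpt8, Prss34 and Gata2) passed as lower in Lf-/- pre-pro-B, where 0.926% of all genes did. Mcpt8 was at -1.52 and Prss34 at -1.08. Without Lf-/- pre-pro-B 2 they were at -1.22 and -0.89, and Prss34 did not pass.

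The 35 genes of coagulation and fibrinolysis, F5 included, were mostly silent here. Of these, 25 stayed under 1 FPKM in all 7 libraries, among them F2, F7 and F9, which the liver makes, and 3 of the 25 were at 0 in each library (F11, Fga and A2m). Their sum was 204 and 119 FPKM in WT pre-pro-B, 99.1 and 207 FPKM in Lf-/- pre-pro-B, 145 FPKM in WT pro-B, and 232 and 145 FPKM in Lf-/- pro-B, with Plaur, the urokinase receptor of myeloid cells, as the highest gene (52.4 to 162 FPKM). The genotypes overlap in pre-pro-B only through Lf-/- pre-pro-B 2, as the other Lf-/- library was below both WT ones. The pro-B sums of Lf-/- were above that of WT, for replicate 2 barely. F10, coagulation factor X, was at 14.5 and 11.7 FPKM in WT pre-pro-B, 7.29 FPKM and listed at 0 in Lf-/- pre-pro-B, 8.28 FPKM in WT pro-B, and 5.75 and 9.25 FPKM in Lf-/- pro-B. It was thus lower in Lf-/- pre-pro-B and overlapped in pro-B. With Lf-/- pre-pro-B 2 included, none of 9 tested genes passed the unadjusted threshold in pre-pro-B (median of -0.29 against 0.03 for all genes). Over both stages 1 of 9, Thbd (thrombomodulin), passed as higher in Lf-/-, where 6.48% of all genes did (median of 0.12 against 0.21). Without Lf-/- pre-pro-B 2 the pre-pro-B comparison has 1 Lf-/- library, and only differences are given for it. That of F13a1 was -0.94 and that of Mcfd2 was -0.77, against -0.99 and -0.29 with Lf-/- pre-pro-B 2. The median of the 9 was then -0.43, against -0.10 for all genes.

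Genes of other lineages moved with genotype or stage too, and their part in the values of the 8 genes was not tested. The 14 early B lineage genes summed to 621 and 596 FPKM in WT pre-pro-B against 3575 and 2469 FPKM in Lf-/- pre-pro-B, and to 231 FPKM in WT pro-B against 2948 and 1633 FPKM in Lf-/- pro-B; 12 of 13 tested genes were higher over both stages at the unadjusted threshold (6.48% of all genes) and 3 at the adjusted one, with Cd79a the most abundant. Without Lf-/- pre-pro-B 2 these were 12 of 12 (8.82% of all genes) and 7. Within each stage the Lf-/- libraries thus had a higher B lineage sum than WT and less Pf4. The 9 mast cell and basophil genes summed to 626 and 499 FPKM, 275 and 215 FPKM, 524 FPKM, and 3116 and 2272 FPKM in the 4 groups in the same order, with Prss34 the most abundant. All 6 tested genes of that list passed the unadjusted threshold as higher in pro-B in the stage comparison of Lf-/- cells, where 2.73% of all genes did (6.28% without Lf-/- pre-pro-B 2). All 6 also passed as higher in the test of the difference between stages, where 2.53% did (14.7% without it), and both counts held without that library. Itga2b was likewise highest in the Lf-/- pro-B libraries and lowest in the Lf-/- pre-pro-B ones.

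The 12 erythroid genes, Hba-a1 foremost, summed to 56146 and 14976 FPKM in WT pre-pro-B, 29727 and 105931 FPKM in Lf-/- pre-pro-B, 41525 FPKM in WT pro-B, and 75817 and 38162 FPKM in Lf-/- pro-B, and none of the 12 passed the unadjusted threshold in any of the 4 tested comparisons. Their sum differed widely between the WT pre-pro-B libraries, in which Pf4 was at 86.1 and 92.4 FPKM, and whether these are related was not tested. The 12 neutrophil genes summed to 299427 and 286420 FPKM, 306675 and 164741 FPKM, 428980 FPKM, and 239141 and 277268 FPKM. Over both stages 4 of the 12, including the knocked-out Ltf, were lower in Lf-/- at the unadjusted threshold, where 0.695% of all genes were. These were Ltf and Elane, Mpo and Prtn3, enzymes of the primary granule, and the same 4 passed without Lf-/- pre-pro-B 2 (0.798% of all genes). Mmp8 passed as higher in pro-B in the stage comparison of Lf-/- cells (log2 difference of 2.05), where 2.73% of all genes did. Without that library it was at 3.18. Ly6c2 was the gene of the 8 monocyte and macrophage genes that passed over both stages, as lower, where 0.695% of all genes did. The 9 stem and progenitor genes summed to between 36.3 and 119 FPKM, most of it Ly6a. Like Itga2b, Ly6a was below WT in both Lf-/- pre-pro-B libraries and above WT in both Lf-/- pro-B libraries. Its genotype difference changed between the stages by 1.60 on the log2 scale, against a median of 0.45 for all genes. Without Lf-/- pre-pro-B 2 the change was 2.03, against 0.56. The 7 T and NK genes summed to between 429 and 1297 FPKM, most of it Nkg7. Of those 7, 5 (Cd3e, Cd3g, Klrd1, Gzma and Ncr1) were higher by at least 1 on the log2 scale in Lf-/- pro-B than in WT pro-B, where 13.5% of all genes were. Nkg7 itself was at -0.63 there. It passed as lower in Lf-/- in pre-pro-B (0.926% of all genes) and over both stages (0.695%), though in neither without Lf-/- pre-pro-B 2. In the stage comparison of Lf-/- cells Cd3g and Ncr1 passed as higher in pro-B (2.73% of all genes), and without Lf-/- pre-pro-B 2 so did 6 of the 7 (6.28% of all genes). The 8 stromal and endothelial genes came to at most 14.4 FPKM, nearly all from Vcam1, with Cdh5 and Kdr, which define endothelium, at no more than 0.13 FPKM. Vcam1 was the only gene of that list tested. Over both stages it was lower in Lf-/- at the unadjusted threshold (log2 difference of -0.70), where 0.695% of all genes were. Without Lf-/- pre-pro-B 2 it was at -0.72 and did not pass.

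**Figure D5:**
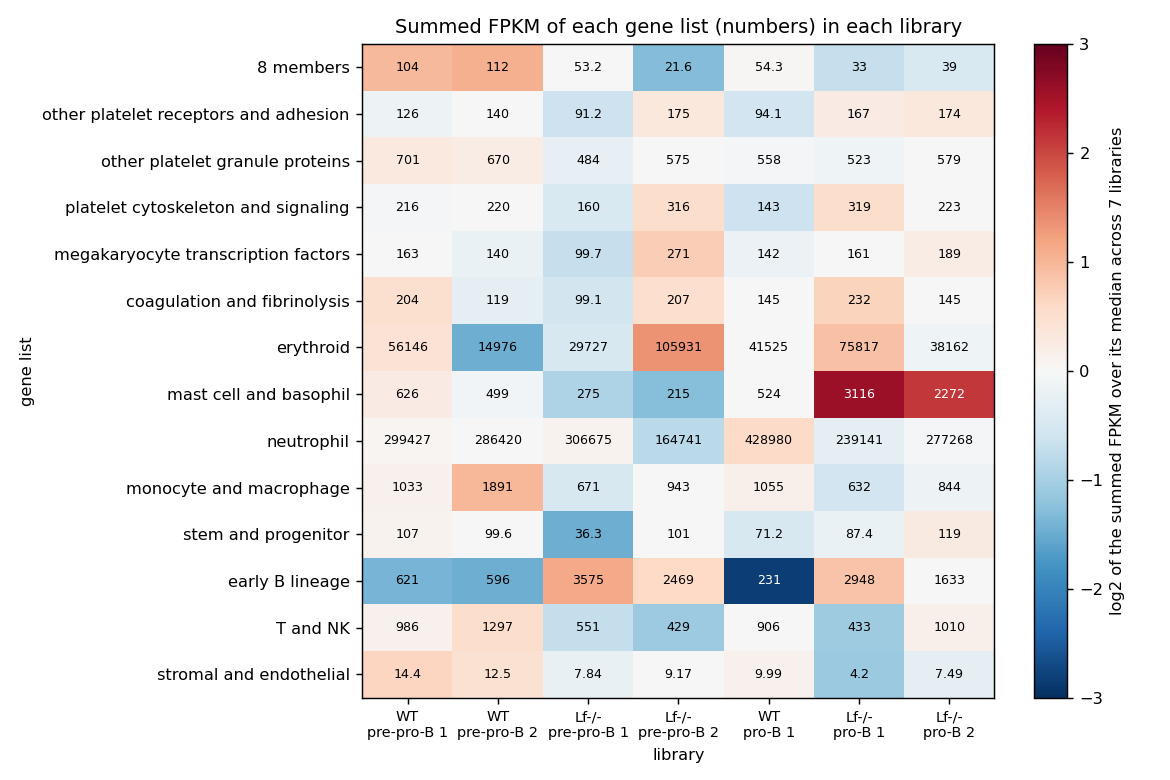
Summed FPKM of each gene list (top to bottom, the number in each cell) in the 7 libraries (left to right), colored by the log2 of the sum over the median of that list across the libraries. The 8 platelet and megakaryocyte genes (8 members, top row) are highest in WT pre-pro-B, at 104 and 112 FPKM, while the early B lineage list is lowest in the WT libraries and the mast cell and basophil list is highest in Lf-/- pro-B, at 3116 and 2272 FPKM.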

How the data were processed

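The authors deposited 1 FPKM value per gene and library, and the unit was read from the values; the submitters' processing notes name TopHat, Cufflinks, HTSeq, DESeq and GRCm38 without role or version, and the annotation is not given in the sources used here. The 8 genes and the gene lists were chosen with earlier results of these data known. Of the list genes, 3 were matched by identifier and the rest by symbol. Genes that reached 1 FPKM in 2 or more of the fitted libraries were tested on log2(FPKM + 1) with limma 3.58.1 in R 4.3.3 (empirical Bayes with a mean-variance trend, two-sided, Benjamini-Hochberg over all genes tested); the fit was tested on simulated data. Comparisons with WT pro-B alone were not tested, except as an alternative in 1 fit of all 7 libraries. Nothing says that libraries came from separate animals, so p-values measure only the spread between these libraries. With 2 libraries against 2, WT pro-B replicate 2 not analysed here, precision is low. Alternatives were another pseudocount (0.1), median-ratio scaling, quantile normalization, no filter, 1 FPKM in every library, leaving out each library, the replicate number as a term, and all 7 libraries in 1 fit. Genes named are the 8, Ltf, the 4 highest of each other list by mean FPKM, list genes past an unadjusted p of 0.05 in a tested comparison, and the 5 closest to the summed level; list genes under 1 FPKM, Treml1, Gfi1b, Mafg, Tal1, Mllt1, Acp2, Ticrr, Samm50, Timm10, Cd3e and the genes overlapping the 8 were named after their values were seen.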

Additional observations from a re-analysis of the deposited data

Results flagged for a closer look

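Itga2b and Gp5 lay on opposite sides of WT at the 2 stages. Itga2b was below both WT libraries in both Lf-/- pre-pro-B libraries (0.446 FPKM and listed at 0, against 1.08 and 1.03 FPKM) and above the WT library in both Lf-/- pro-B libraries (1.95 and 1.38 against 0.832 FPKM). The change of the genotype difference between stages was 1.30 on the log2 scale, with an unadjusted p of 0.064 and an adjusted p of 0.99 in limma. Gp5 was at 1.32 FPKM and listed at 0 in Lf-/- pre-pro-B, against 1.68 and 1.74 FPKM, and at 1.48 and 1.82 against 1.33 FPKM in pro-B. Its change was 1.02 on the log2 scale, with an unadjusted p of 0.22 and an adjusted p of 0.99. With all 7 libraries the median change over all genes was itself 0.45. Neither gene passed the test of the difference, and the pro-B side of both rests on 1 WT library. Without Lf-/- pre-pro-B 2, which lists both genes at 0, the changes were 1.04 and 0.41, against a median of 0.56 for all genes. That of Gp5 was then below this median. Under median-ratio scaling and quantile normalization the pro-B difference of Gp5 turned sign, and that of Itga2b went from 0.53 to 0.19 and 0.16.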

How the results depend on the processing

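Every value given here as moved or reversed has a cause that was not tested, except where fewer genes were tested. For the 6 genes tested, scaling and filters did not turn the direction of Pf4 in any of the 6 comparisons. In pre-pro-B, 0% of all genes passed the adjusted threshold, and 0 of the 6 passed the unadjusted one, which 2.92% of all genes did. At the unadjusted threshold 1 of the 6 passed in 1 fit of all 7 libraries (Pf4, 4.89% of all genes). In the stage comparison of Lf-/- cells that fit gave 1 of the 6 (Itga2b, 5.73%).

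With the replicate number as a term (replicate block), 65 genes passed the adjusted threshold in pre-pro-B and 84 in the stage comparison of Lf-/- cells, with 1 of the 6 genes past the unadjusted one in each (Pf4; 5.47% and 6.80% of all genes); over both stages 0 did (5.88%), and Gp9 was at -0.0875. Deviations of same-numbered libraries correlated at r = 0.04, 0.05 and -0.01 over 10793 genes, which does not show that the numbers pair the libraries. In pro-B and between WT stages no paired analysis was made, because WT pro-B has 1 library.

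Over both stages the adjusted count of 20 genes was 9 with a pseudocount of 0.1, 7 with median-ratio scaling, 10 with quantile normalization, 0 with no filter and 63 with 1 FPKM required in every library, which does not test Pf4. At the unadjusted threshold 0 of the 6 genes passed with that pseudocount (6.87% of all genes) and with quantile normalization (7.79%). With no filter it was 0 of 8 tested (4.21%), and with that stricter filter 0 of 2 tested (10.6%). Gp9 was at -0.28 and -0.34 under the scalings. In the test of the difference between stages, 122 genes passed with no filter, and Ppbp, at 0.00 as reported, was at -0.44 and -0.51 under the scalings. In pro-B, 2 of the 6 genes were counted under either scaling and 0 with the stricter filter, and between WT stages 0 were counted under either scaling. The shares of all genes counted under these settings are not given here, so the counts are not set against them.

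Leaving out 1 library at a time, with a lone library assumed to vary like the other groups, gave 0 to 3338 genes at the adjusted threshold and, at the unadjusted one, 1 to 5 of the 8 genes in pre-pro-B (where 1.51% to 48.3% of all genes passed), 10 to 3043 and 0 to 4 in the stage comparison of Lf-/- cells (1.48% to 41.9%), 0 to 123 and 0 to 2 over both stages (4.08% to 28.7%), and 0 to 561 and 0 to 4 in the difference between stages (0.875% to 27.6%), with 4 to 6 of the 8 tested; pro-B gave 0 each time and WT stages 1 each time. The difference between stages and the comparisons with WT pro-B have no value without the lone WT pro-B library. The highest counts came without Lf-/- pre-pro-B 1, which leaves the library that stands apart alone in its group, except for the 123, which came without the latter. In pre-pro-B Pf4 ranged from -6.49 to -1.21, Ppbp from -2.72 to 0.37 and Gp9 from -0.83 to 1.41. In the stage comparison of Lf-/- cells Pf4 ranged from -0.59 to 4.69 and Gp9 from -2.23 to 0.00849. Over both stages Itga2b ranged from -0.77 to 0.0113 and Gp9 from -0.58 to 0.54. In the difference between stages Ppbp ranged from -1.54 to 1.55 and Gp9 from -1.74 to 0.49.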
